A study of Mus musculus with 10 samples.

Results

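DNA replication and S-phase genes were followed in mouse blood stem and progenitor cells transduced with HOXB4 retroviruses. The set was a written list of 37 genes whose products license replication origins, open and copy the DNA helix, join the new strands, supply nucleotides or package the new DNA. It was matched to the arrays by gene symbol, with 1 probe set per gene, the one with the highest mean over all arrays. Of the 37 genes, 36 were measured, out of 18193 genes in all, and they had 80 of the 45037 probe sets tested. Chaf1a had no probe set carrying its symbol alone in the annotation used and was not analysed here. The 36 members all lay above the median mean level of all probe sets (a log2 signal of 4.05), so none dropped out for low signal.

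A cell copies its DNA once per division. In G1 the CDC6 and CDT1 proteins load the MCM2 to MCM7 helicase onto origins, CDC45 and the GINS proteins switch the helicase on in S phase, and primase, DNA polymerases, the clamp PCNA and its loader RFC then build the new strands. Most of these genes are targets of E2F transcription factors, and their messages are abundant in cycling cells and scarce in resting blood stem cells.

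HOXB4 is a homeobox protein whose overexpression lets blood stem cells multiply in culture. In the HOXB4-ER form it is fused to a tamoxifen-inducible receptor domain, so that 4-hydroxytamoxifen (TMX) brings the protein into the nucleus. HOXB4const is the unmodified protein, which is active without the drug. All transduced cells were grown for 14 days in serum-free medium with SCF, FL, IL-11 and IL-3 and 10 nM TMX, sorted as LSK cells (free of lineage markers, with Sca1 and c-kit on the surface) that made GFP, kept for 12 h more with TMX, and then divided between medium with and without it. Every group therefore shared the retroviral transduction, the 14 days of TMX and the cytokines, while the construct differed, and none was untransduced. The 5 groups of 2 arrays were HOXB4-ER cells with 10 nM TMX for 1 h, the same cells after 1 h and after 4 h without it, HOXB4const cells after 1 h without TMX, and HOXB4const cells with 10 nM TMX for 1 h. The labels call the 2 arrays of a group biological replicates 1 and 2 and do not say which animals or cultures stand behind a number, so the p-values measure the spread between these arrays. The sources used here give neither the strain nor the age of the animals. The comparisons address how the messages respond when HOXB4-ER is switched off, with HOXB4const as the control for the drug.

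Values are log2 signals of Affymetrix Mouse Genome 430 2.0 arrays, and a difference of 1 on this scale is a 2-fold change. Probe sets differ in how brightly they report a message, so levels are compared between arrays and not between genes. The median log2 signal of an array lay between 3.96 and 5.32, with HOXB4const without TMX replicate 1 the highest. Of the 10 LSK markers listed, 8 were measured, and Kit, the receptor used in the sort, had signals of 8.72 to 10.9. Hoxb4 itself, which the probe set may read from the mouse gene, the transgene or both, did not pass the test in any comparison, with a difference of -0.24 ± 0.59 (SE) between HOXB4-ER cells after 4 h without TMX and those with TMX.

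The promoters of several members carry the E2F sites that the family is known for, and 5 are printed to show where the letters lie. RefSeq windows from 250 bases before to 50 bases after a transcription start (GRCm38.p6) were held for 28 of the 36 members. The 4 octamers TTTCGCGC, TTTGGCGC, TTTCCCGC and TTTGCCGC were searched on both strands, and a pair of them can overlap. At least 1 was found in 11 of the 28 members (39.3%) and in 704 of 27025 genes (2.6%). Before the start alone the shares were 25% of the members and 2.16% of all genes. CCAAT, the letters of the NF-Y site, was found in 57.1% of members and 41.1% of all genes, and TTTGAA, the core of the CHR element of later cell cycle genes, in 14.3% and 20.2%. The last 170 bases before the start are given 5′ to 3′ on the strand of the gene, with the octamers in capitals. They lie at chr1:128359706-128359875 (minus strand) for Mcm6, chr8:75109339-75109508 (plus strand) for Mcm5, chr5:138171884-138172053 (minus strand) for 1 of 2 starts of Mcm7, chr5:151651209-151651378 (minus strand) for Rfc3 and chr11:98907981-98908150 (plus strand) for Cdc6.
Mcm6: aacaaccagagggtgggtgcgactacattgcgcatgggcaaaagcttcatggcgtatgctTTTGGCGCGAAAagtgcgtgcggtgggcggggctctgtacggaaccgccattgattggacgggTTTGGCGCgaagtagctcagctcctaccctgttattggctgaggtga
Mcm5: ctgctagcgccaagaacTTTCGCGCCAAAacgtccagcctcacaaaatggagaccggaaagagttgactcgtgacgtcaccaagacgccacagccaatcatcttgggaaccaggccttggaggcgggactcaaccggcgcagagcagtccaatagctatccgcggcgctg
Mcm7: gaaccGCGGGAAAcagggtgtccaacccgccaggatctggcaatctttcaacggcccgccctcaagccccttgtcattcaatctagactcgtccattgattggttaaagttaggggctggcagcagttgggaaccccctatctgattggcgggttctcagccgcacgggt
Rfc3: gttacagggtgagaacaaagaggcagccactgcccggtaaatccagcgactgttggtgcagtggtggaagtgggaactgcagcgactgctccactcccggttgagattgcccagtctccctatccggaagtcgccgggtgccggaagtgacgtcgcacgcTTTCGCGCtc
Cdc6: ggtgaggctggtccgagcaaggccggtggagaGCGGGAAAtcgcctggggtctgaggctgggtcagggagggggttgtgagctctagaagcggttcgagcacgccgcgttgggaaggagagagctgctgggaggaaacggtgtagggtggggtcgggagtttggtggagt
Mcm6 holds 3 octamers in this stretch, of which a pair overlaps, and Mcm5 holds an overlapping pair. The octamer of Rfc3 ends 3 bases before the start. A match describes the letters only.

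No member passed the threshold (limma, adjusted p under 0.05 over all 45037 probe sets) in any comparison of TMX, time or construct, and neither did any other probe set: the share called was 0% in each of these 6 comparisons. The smallest adjusted p of any probe set was 0.457 for HOXB4-ER after 1 h, 0.714 for HOXB4-ER after 4 h against TMX, 0.348 for 4 h against 1 h without TMX, 0.855 for HOXB4const, 0.854 for the difference between the responses of the constructs and 0.715 between the constructs with TMX. At an unadjusted p under 0.05, limma called 2145, 1509, 2558, 1956, 1698 and 1972 probe sets in the same order. With 1 probe set per gene the shares at that level were 3.53%, 2.63%, 4.40%, 3.66%, 3.05% and 3.63% of 18193 genes, and 0 of the 36 members were among them in each of the 6 under this fit. Among the members' dimmer probe sets, 1 of Slbp and 1 of Rrm1 reached it, with means of 2.70 and 2.36, below the median level. That of Slbp gave 5.08 after 1 h and 4.31 after 4 h in HOXB4-ER cells, each against TMX. It gave 5.05 for the difference between the responses and -4.63 between the constructs. That of Rrm1 gave 2.53 after 1 h in HOXB4-ER cells. In whole-population RNA, fewer cells in S phase and less message per cell cannot be told apart.

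**Figure D1:**
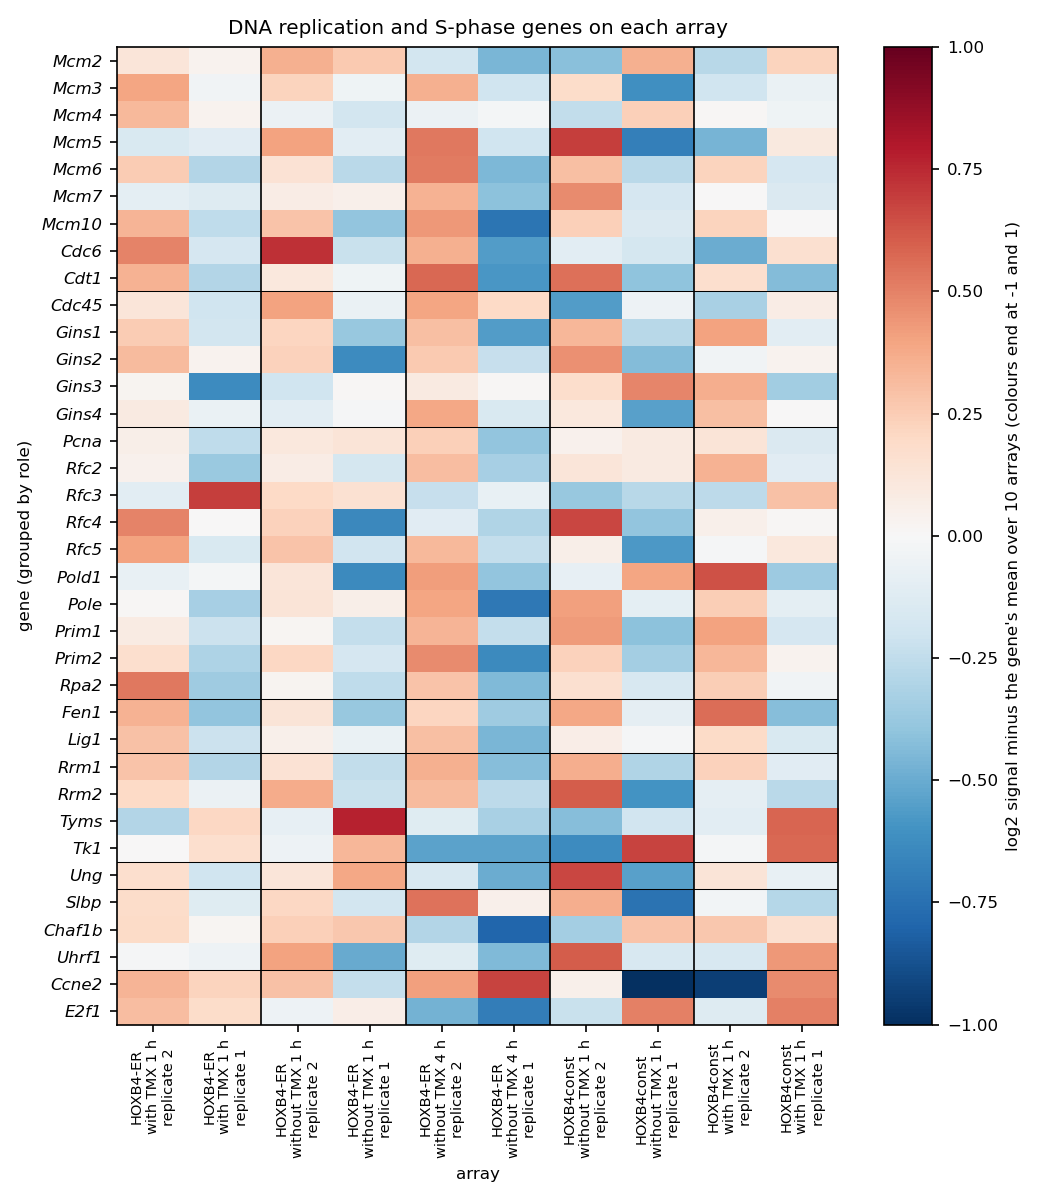
Log2 signal of the 36 measured genes on the 10 arrays, each gene as the deviation from its mean over all arrays (red above, blue below, colours ending at -1 and 1); rows are grouped by role and columns by group with replicate 2 left of replicate 1. In 16 of the 36 rows replicate 2 is higher than replicate 1 in all 5 groups. The E2f1, Chaf1b and Tk1 rows are blue on both arrays taken after 4 h without TMX.

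After 1 h without TMX the members of HOXB4-ER cells differed from those with TMX by less than their errors. The differences ran from -0.46 to 0.39, with 16 members higher and 20 lower and a median of -0.03, beside 0.07 over all genes. Licensing genes had a median difference of 0.01, helicase activation genes -0.07 and synthesis genes -0.06. The 4 members with the smallest p were Rfc4, Tyms, Mcm4 and Gins2. Rfc4, a subunit of the clamp loader, had 8.34 and 9.21 without TMX, against 8.99 and 9.48 with TMX. The difference was -0.46 ± 0.54 (SE, n = 2 arrays a group, limma adjusted p = 1.00), and the arrays overlap. A second probe set of Rfc4 (mean 8.62 beside 8.99) gave -0.16. Tyms, the enzyme that makes thymidylate, had 6.57 and 5.72 without TMX, against 6.01 and 5.51 with TMX, a difference of 0.39 ± 0.50. Mcm4, a helicase subunit, had 10.03 and 10.15 without TMX, against 10.25 and 10.54 with TMX. Its arrays do not overlap, and the difference of -0.30 ± 0.41 is smaller than its error. Gins2 had 7.44 and 8.30 without TMX, against 8.11 and 8.39 with TMX, which overlap. The difference was -0.38, while its second probe set (mean 7.65 beside 8.07) gave 0.37, so its probe sets disagree.

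After 4 h without TMX, E2f1, Chaf1b and Tk1 had the lowest values relative to cells with TMX, and all 3 differences missed the threshold. The differences of the 36 members ran from -0.83 to 0.35, with 12 higher and 24 lower and a median of -0.07, beside 0.02 over all genes. The arrays did not overlap for 7 members that were lower, where 13.8% of all genes were, and for 2 that were higher, where 15.9% were. The median differed in sign between the replicate numbers, with 0.07 within replicate 2 (21 of 36 higher) and -0.25 within replicate 1 (6 of 36 higher), beside 0.03 and 0.01 over all genes. Without the 4 h array of replicate 1 it was 0.25, and without that of replicate 2 it was -0.39, but leaving out 1 array leaves the replicate numbers unbalanced between the groups, and these differ by themselves, as given further on. The group at 4 h can be set only against cells with TMX at 1 h, so time in culture and loss of TMX cannot be told apart.

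E2f1, a transcription factor that drives entry into S phase, had 7.51 and 7.64 with TMX, 7.40 and 7.28 after 1 h without TMX, and 6.64 and 6.86 after 4 h without it. Both 4 h arrays lie below all other arrays of the series. The difference between 4 h without TMX and TMX was -0.83 ± 0.47 (SE, 95% interval -1.92 to 0.26, limma adjusted p = 1.00), and that between 4 h and 1 h without TMX was -0.59 ± 0.47. A second, dimmer probe set of E2f1 gave -0.52 and the third, below the median level, 0.22 for 4 h against TMX. In HOXB4const cells E2f1 had 7.84 and 7.11 without TMX, against 7.84 and 7.20 with TMX.

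Chaf1b encodes a subunit of the CAF-1 chaperone, which places histones on newly made DNA. It had 8.20 and 8.37 with TMX, 8.45 and 8.42 after 1 h without TMX, and 7.39 and 7.88 after 4 h without it. The 4 h arrays are the lowest of the HOXB4-ER arrays, while HOXB4const without TMX replicate 2 was as low as 7.84. The difference was -0.65 ± 0.44 for 4 h against TMX (95% interval -1.68 to 0.38) and -0.80 ± 0.44 for 4 h against 1 h without TMX (limma adjusted p = 0.943). A dimmer probe set gave -0.74 for 4 h against TMX, but its mean of 4.29 lies close to the median level of 4.05.

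Tk1, thymidine kinase of the nucleotide salvage route, had 8.59 and 8.43 with TMX, 8.76 and 8.38 after 1 h without TMX, and 7.89 on both arrays after 4 h without it. In HOXB4const cells it averaged 8.45 ± 0.92 without TMX and 8.70 ± 0.42 with TMX (SD, n = 2 each), and the HOXB4const array without TMX of replicate 2, at 7.80, was below the 4 h value. The difference between 4 h without TMX and TMX was -0.62 ± 0.55 (95% interval -1.91 to 0.67). Rfc3, another clamp loader subunit, had 8.12 and 7.32 with TMX, 7.57 and 7.62 after 1 h without TMX, and 7.35 and 7.20 after 4 h without it. The arrays at 4 h overlap those with TMX, and the difference was -0.45 ± 0.46.

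Mcm2, a helicase subunit, had 9.75 and 9.84 with TMX, 9.97 and 10.07 after 1 h without TMX, and 9.25 and 9.53 after 4 h without it. It was among the 4 members with the smallest p between 4 h and 1 h without TMX, with -0.63 ± 0.46 (limma adjusted p = 0.963). A second probe set of Mcm2 gave 0.06 there, so the gene's probe sets disagree. The other 5 measured subunits of the MCM2 to MCM7 helicase had differences of -0.22 to 0.30 between 4 h without TMX and TMX. By role, the medians for 4 h against TMX were -0.10 for the 9 licensing genes, 0.11 for the 5 helicase activation genes, -0.01 for the 10 synthesis genes and -0.11 for the 4 nucleotide supply genes, of which 0 were higher. Cdc45 and Gins3, which switch the helicase on, were on the other side, with 0.34 ± 0.45 and 0.35 ± 0.47. Dimmer probe sets of these genes gave -0.06 for Cdc45 (mean 5.81) and 0.35 for Gins3 (mean 5.51), so those of Cdc45 disagree. Between 4 h and 1 h without TMX, 16 members were higher and 20 lower, with a median of -0.02 beside -0.06 over all genes.

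**Figure D2:**
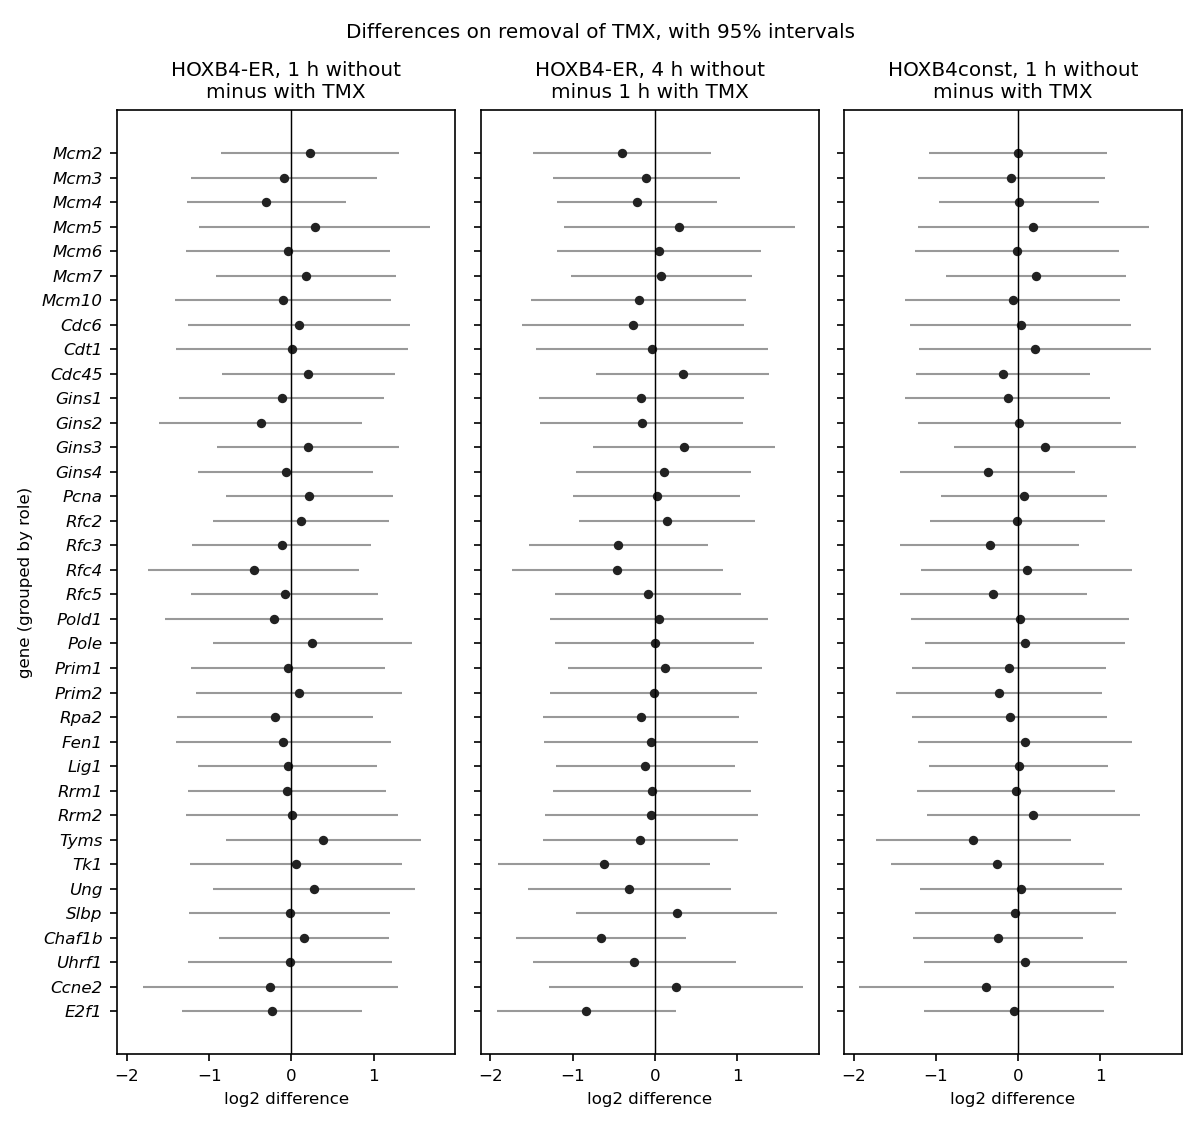
Log2 differences of the 36 genes (points) with 95% intervals from limma (lines) for HOXB4-ER cells after 1 h without minus with TMX (left), HOXB4-ER cells after 4 h without minus 1 h with TMX (middle) and HOXB4const cells after 1 h without minus with TMX (right). All intervals of this fit, which has no intensity trend, include 0, and E2f1 at -0.83 in the middle panel is the farthest from 0.

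The arrays could not show small changes. Within replicate 2 and within replicate 1, a split chosen after seeing the data, the members' median was -0.04 and 0.02 for HOXB4-ER after 1 h and 0.12 and -0.18 for 4 h against 1 h without TMX. It was -0.03 and -0.16 for HOXB4const and 0.11 and -0.13 for the constructs with TMX. The main fit has no term for the replicate number. In the comparisons of 2 groups, the 95% interval of a member there reached a median of 1.21 to either side of its estimate. A 2-fold change in either direction lay inside it for most members under this fit. Only 1 interval in the 4 comparisons within a construct lay wholly between -1 and 1, that of Mcm4 in HOXB4const cells. With the replicate number as a block, standard errors for 4 h against TMX were 0.41 for E2f1 and 0.40 for Chaf1b, smaller than in the main fit. For Ccne2 it was 0.68, which is larger. The reach of the blocked intervals is not given here. With a variance prior that follows signal intensity, an alternative fit, the reach was 0.81, and 25 of 36 intervals lay between -1 and 1 after 1 h and 19 after 4 h, each against TMX. Under that fit the intervals of E2f1 for 4 h against TMX (-1.64 to -0.02) and of Chaf1b for 4 h against 1 h without TMX (-1.51 to -0.09) excluded 0. Neither passed the threshold, with a limma adjusted p of 1.00 for E2f1 and 0.937 for Chaf1b, and no other member's interval excluded 0 in the comparisons of TMX, time or construct. The log2 gap between the 3′ and 5′ Gapdh controls (3′ minus 5′), which grows as RNA or its copies shorten, was 3.47 and 1.42 on the 4 h arrays, against 1.74 and 1.04 on those of HOXB4-ER cells with TMX. Its part in the 4 h values was not tested.

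In HOXB4const cells TMX has no fusion protein to act on, and these arrays show what removal of the drug itself goes with. The members' differences after 1 h without it ran from -0.55 to 0.33, with 16 members higher and 20 lower and a median of -0.01, beside 0.02 over all genes. Tyms had 5.61 and 5.37 without TMX, against 6.38 and 5.69 with TMX, a difference of -0.55 ± 0.50 with no overlap. Gins4 had 8.41 and 9.06 without TMX, against 8.96 and 9.26 with TMX, which overlap. Rfc3 had 7.14 and 7.05 without TMX, against 7.71 and 7.17 with TMX, a difference of -0.34 ± 0.46. Its dimmer probe set gave -1.26. Gins3 had 7.32 and 7.01 without TMX, against 6.49 and 7.20 with TMX.

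The response to 1 h without TMX was then compared between the constructs by an interaction term. Tyms stood farthest apart, since it was higher without TMX in HOXB4-ER cells and lower in HOXB4const cells, with a difference of differences of 0.94 ± 0.71 (limma adjusted p = 1.00). Rfc4 gave -0.56 ± 0.77, Chaf1b 0.39 ± 0.62 and Cdc45 0.39 ± 0.63. Their second probe sets gave -0.01 for Rfc4, 0.42 for Chaf1b and 0.78 for Cdc45. Of the 36 members, 19 were above 0 and 17 below, with a median of 0.01. The intervals reached a median of 1.71 to either side, the widest of the comparisons.

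With TMX in both, no member passed between HOXB4-ER and HOXB4const cells, and 16 were higher and 20 lower in HOXB4-ER cells, with a median of -0.05, beside -0.10 over all genes. Ccne2, the cyclin partner of CDK2 at the start of S phase, had 7.74 and 7.85 in HOXB4-ER cells, against 7.98 and 6.57 in HOXB4const cells. The difference of 0.52 ± 0.66 rests on a single low HOXB4const array. Mcm3 had 10.72 and 11.16 in HOXB4-ER cells, against 10.70 and 10.56 in HOXB4const cells, with 0.31 ± 0.48. Gins3 was at -0.30 ± 0.47 and Rfc2 at -0.28 ± 0.45, and the arrays of both overlap. Neutrophil markers had a median of 1.22 between the same groups, with 9 of 10 higher in HOXB4-ER cells. Only the replicate 1 arrays showed this in their median deviation, with 2.10 in HOXB4-ER cells against -0.56 in HOXB4const cells. On the replicate 2 arrays it was -1.09 against -0.74. The part of these markers in the members' values was not tested.

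The larger shift in these genes ran with the replicate number. In the fit of replicate 2 against replicate 1 within groups, 30 of 36 members were higher in replicate 2 and 6 lower, with a median difference of 0.38, beside -0.03 over all genes and 0.05 over genes at or above the median level. No probe set passed at an adjusted p under 0.05 (0% of 45037, smallest adjusted p 0.132), while 6152 had an unadjusted p under 0.05. Of the 36 members 6 had an unadjusted p under 0.05, all higher, where 12.1% of all genes had one in either direction. Among genes at or above the median level 1587 of 11341 had one. In 16 of 36 members (44.4%) replicate 2 was higher in 5 of 5 groups, against 10.9% of all genes and 16.7% of genes at or above the median level. In 10 members every replicate 2 array lay above every replicate 1 array, against 4.81% of all genes, and in 0 members the reverse held, against 3.11% of all genes. Of the 11341 genes at or above the median level, 864 lay wholly higher in replicate 2 and 522 wholly lower.

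Fen1, the nuclease that trims flaps of lagging-strand fragments, had replicate 2 signals of 10.30, 10.08, 10.17, 10.34 and 10.51 in HOXB4-ER cells with TMX, 1 h and 4 h without it, and HOXB4const cells without and with TMX. Its replicate 1 signals were 9.56, 9.57, 9.59, 9.86 and 9.53 in the same order. The groups of 5 do not overlap, and the difference was 0.65 ± 0.22 (SE, limma adjusted p = 0.305). Cdt1, the licensing factor that loads the helicase, had 11.22, 10.98, 11.44, 11.42 and 11.04 in replicate 2, against 10.57, 10.83, 10.29, 10.47 and 10.43 in replicate 1. These do not overlap either, and the difference was 0.70 ± 0.25. Gins1 had 9.22, 9.18, 9.26, 9.29 and 9.36 in replicate 2, against 8.78, 8.58, 8.40, 8.68 and 8.86 in replicate 1. Mcm6 had 11.99, 11.88, 12.25, 12.03 and 11.95 in replicate 2, against 11.44, 11.46, 11.28, 11.46 and 11.57 in replicate 1. Both are without overlap, with differences of 0.60 ± 0.21 for Gins1 and 0.58 ± 0.22 for Mcm6. A second probe set of Fen1, nearly as bright with a mean of 9.87 beside 9.95, gave only 0.03. The second of Cdt1 (mean 9.51) gave 0.17 and that of Gins1 (mean 5.26) 0.09, so the size of the shift in these 3 genes depends on the probe set.

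With the prior that follows intensity, 7 members passed, all higher in replicate 2, where 3.48% of all genes (634) did. By their brightest probe sets these were Fen1 (limma adjusted p = 0.0123), Cdt1 (0.0169), Gins1 (0.0202), Rrm1 (0.0300), Mcm6 (0.0346), Mcm10 (0.0462) and Prim1 (0.0492). Rrm1, the large subunit of ribonucleotide reductase, had a difference of 0.55, Mcm10, which helps start the helicase, 0.61, and Prim1, the catalytic subunit of primase, 0.51. Under the fit without that prior none of the 7 passed, so their call depends on how the spread is modelled. The 36 members all lie above the median level, and the share passing among such genes was not counted with that prior.

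The shift covered most roles. The median difference of replicate 2 over replicate 1 was 0.39 for licensing genes (7 of 9 higher), 0.31 for helicase activation (5 of 5), 0.45 for synthesis (9 of 10), 0.51 for Fen1 and Lig1, the ligase that joins lagging-strand fragments (2 of 2), and 0.28 for Slbp, Chaf1b and Uhrf1, which serve histone supply and chromatin (3 of 3). Nucleotide supply was split, with a median of 0.07. Rrm1 at 0.55 and Rrm2 at 0.56, the subunits of ribonucleotide reductase, were higher, while Tyms at -0.41 and Tk1 at -0.49 were lower in replicate 2. Rfc3 at -0.31 was the only synthesis gene lower in replicate 2, although the other measured RFC subunits were at 0.36 to 0.53. Tyms, Tk1 and Rfc3 were higher in replicate 2 in 1 of 5 groups each, and E2f1 in 2 of 5, with -0.23.

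The median of the 36 members was above 0 in each group. It was 0.32 in HOXB4-ER cells with TMX (31 of 36 higher), 0.27 after 1 h (28 of 36) and 0.56 after 4 h without TMX (33 of 36), and 0.54 without TMX (25 of 36) against 0.19 with TMX (23 of 36) in HOXB4const cells. Its size changed with the scaling of the arrays, while its direction was the same under both scalings tried. With arrays centred on their medians it was 0.71 while all genes were at 0.29, and with quantile normalization 0.30 while all genes were at 0.13, so relative to all genes it was 0.42 and 0.17.

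**Figure D3:**
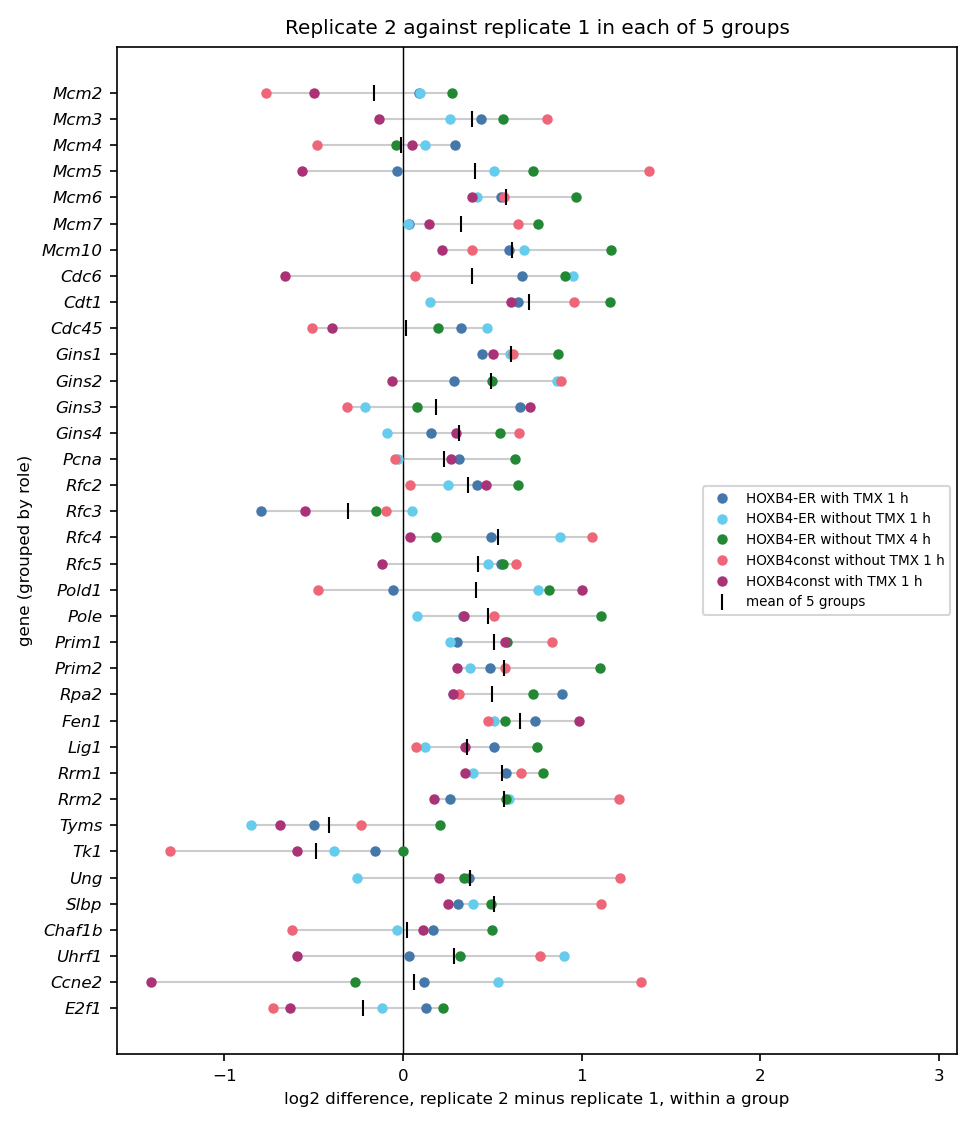
Log2 difference of replicate 2 minus replicate 1 for each of the 36 genes, with 1 point for each of the 5 groups and a bar at their mean; a grey line spans the points. The points of 16 genes lie wholly right of 0, among them Fen1, Cdt1, Gins1 and Mcm6, while the means of Tyms, Tk1, Rfc3 and E2f1 lie left of it.

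Other cell cycle lists, also written with earlier results known, were read in the same comparison. Of 59 further replication genes 50 were higher in replicate 2 (median 0.43), among them Cad, which starts pyrimidine synthesis, at 0.94 ± 0.22 and the origin subunit Orc3 at 0.83 ± 0.22. Of 27 genes of G2 and M phase 23 were higher (median 0.45), with Hmmr at 1.13 ± 0.24 and the checkpoint kinase Bub1 at 0.86 ± 0.22. Of 12 G1 regulators 4 were higher (median -0.24), with the CDK inhibitor Cdkn2d at -1.15 ± 0.26 and cyclin D1 (Ccnd1) at -0.93 ± 0.28. None of these genes passed the threshold. For 4 h without TMX against TMX the medians were 0.01, 0.14 and -0.02.

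Markers of mature myeloid cells ran the other way with the replicate number. All 11 measured monocyte and macrophage markers were lower in replicate 2, with a median difference of -2.98, and their summed log2 level was 67.9 to 75.9 on replicate 2 arrays and 97.7 to 105 on replicate 1 arrays. None of the 11 was at 0 on any array, and the lowest value was 1.76 for Cx3cr1. Csf1r, the receptor that defines the lineage, averaged 7.60 ± 0.78 on replicate 2 arrays and 10.96 ± 0.45 on replicate 1 arrays (SD, n = 5 each). Dendritic markers had a median of -2.22 (0 of 7 higher), neutrophil markers -1.96 (1 of 10), lymphoid markers -1.17 (1 of 9), mast cell and basophil markers -0.64 (3 of 7), megakaryocyte markers -0.19 (2 of 7), erythroid markers 0.08 (3 of 6) and LSK markers 0.15 (4 of 8). Most lymphoid markers lay below the median level of 4.05, such as Cd79a (median signal 3.44) and Rag1 (1.70), while Il7r (6.34) and Dntt (5.76) lay above it. The erythroid Hba-a1 (2.60) and Alas2 (0.62) were also below it, so these 2 lists rest partly on signal near background. In HOXB4-ER cells the median deviation of the neutrophil markers was -1.09 on the replicate 2 array and 2.10 on the replicate 1 array with TMX, -0.53 and 1.96 after 1 h, and -1.35 and 1.70 after 4 h without it. In HOXB4const cells it was -1.11 and -0.52 without TMX and -0.74 and -0.56 with TMX, while the members' replicate medians were 0.54 and 0.19. The Gapdh 3′ minus 5′ difference was 2.72 ± 1.08 on replicate 2 arrays and 1.10 ± 0.26 on replicate 1 arrays. The part of these cell types and of RNA length in the members' shift was not tested.

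**Figure D4:**
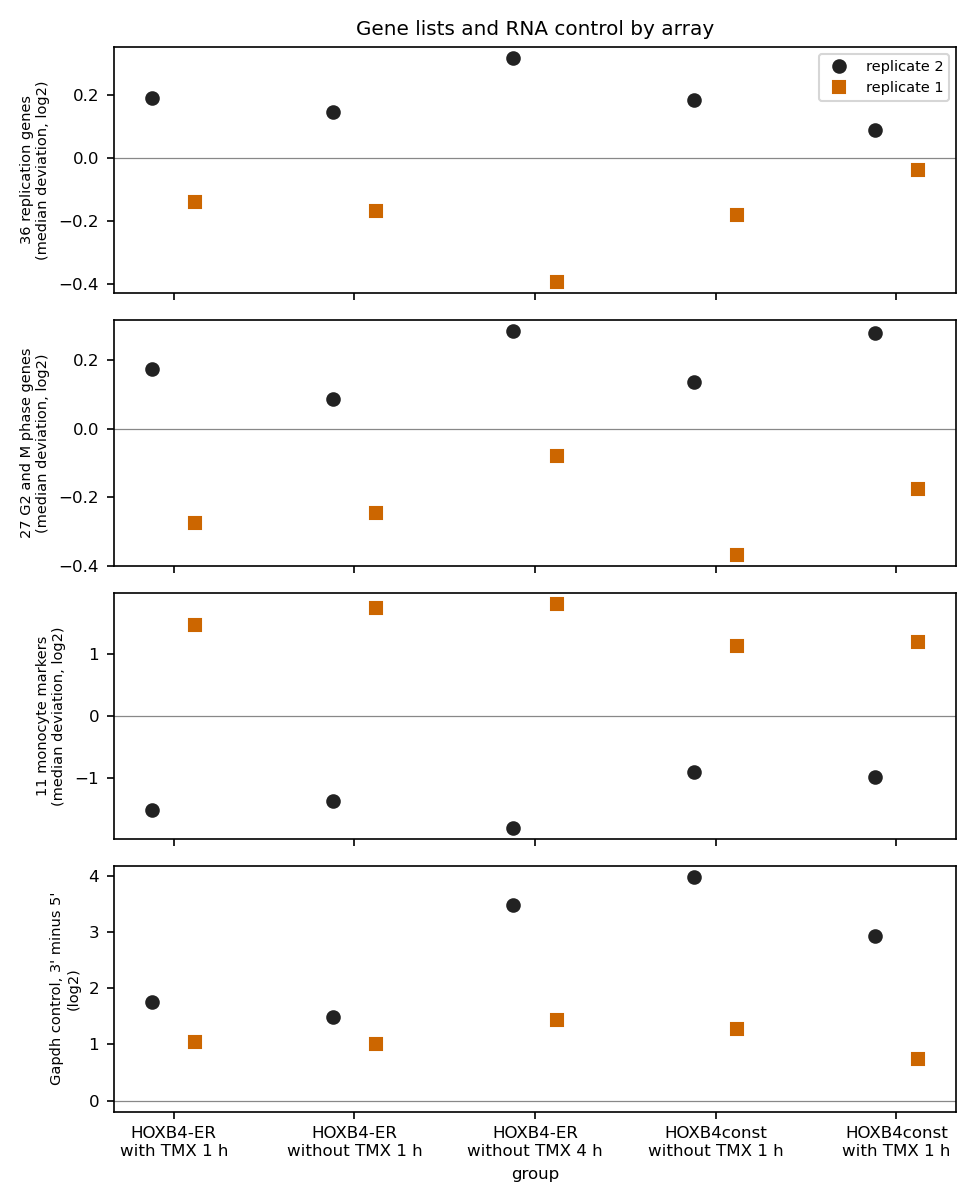
Median deviation (log2) on each array of the 36 replication genes, 27 G2 and M phase genes and 11 monocyte and macrophage markers from their means over 10 arrays, and the log2 difference between the 3′ and 5′ Gapdh control probe sets, by group with replicate 2 (circles) left of replicate 1 (squares). In each group replicate 2 is higher in the panels of replication genes, G2 and M phase genes and Gapdh, and lower in the monocyte panel.

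Probe sets of 1 gene did not all give the replicate shift. Of the 44 dimmer probe sets of 27 members, 26 had the sign of the brightest one between replicates, and 30 had it for 4 h without TMX against TMX. Among the 34 of them at or above the median level, the brightest probe set exceeded the other by more than 1 in its replicate difference in 8, and in 0 was it below by more than 1. That is 23.5% and 0% of them, and over all genes the shares were 17.7% and 2.42% of 7887 such probe sets, so the lean was not limited to replication genes. The 8 belong to 7 genes. Uhrf1, which guides maintenance DNA methylation behind the fork, was at 0.28 by its brightest and -2.42 by its other probe set. The single-strand binding subunit Rpa2 was at 0.50 and -1.45, Mcm3 at 0.38 and -1.43, Rrm1 at 0.55 and -0.99, and Rrm2 at 0.56 against -0.60 and -0.48. The remaining probe sets of Mcm3 gave 0.42 (mean 9.98), 0.31 (mean 9.74) and -0.41 (mean 5.29).

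The gap between the probe sets of a gene differed between arrays. For Uhrf1 it was 4.00 to 7.63 on replicate 2 arrays and 1.87 to 3.66 on replicate 1 arrays, with no overlap. Its dimmer probe set lay below the array's median level on 2 of the 5 replicate 2 arrays, with 2.95 on the lower, so its gap is not well measured there. For Rrm1 it was 0.72 to 2.67 on replicate 2 arrays and -0.04 to 0.70 on replicate 1 arrays. For Rrm1 it was widest on the HOXB4const array without TMX of replicate 2, which had the highest Gapdh 3′ minus 5′ difference, 3.98. Mcm6, in contrast, had 0.58 and 0.55 by its 2 probe sets above the median level, and Prim1 had 0.51 and 0.50 by both of its own. Where a probe set lies on its transcript was not analysed here. With the mean of all probe sets of a gene in place of the brightest, the members' median between replicates was 0.23 while all genes were at -0.16.

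**Figure D5:**
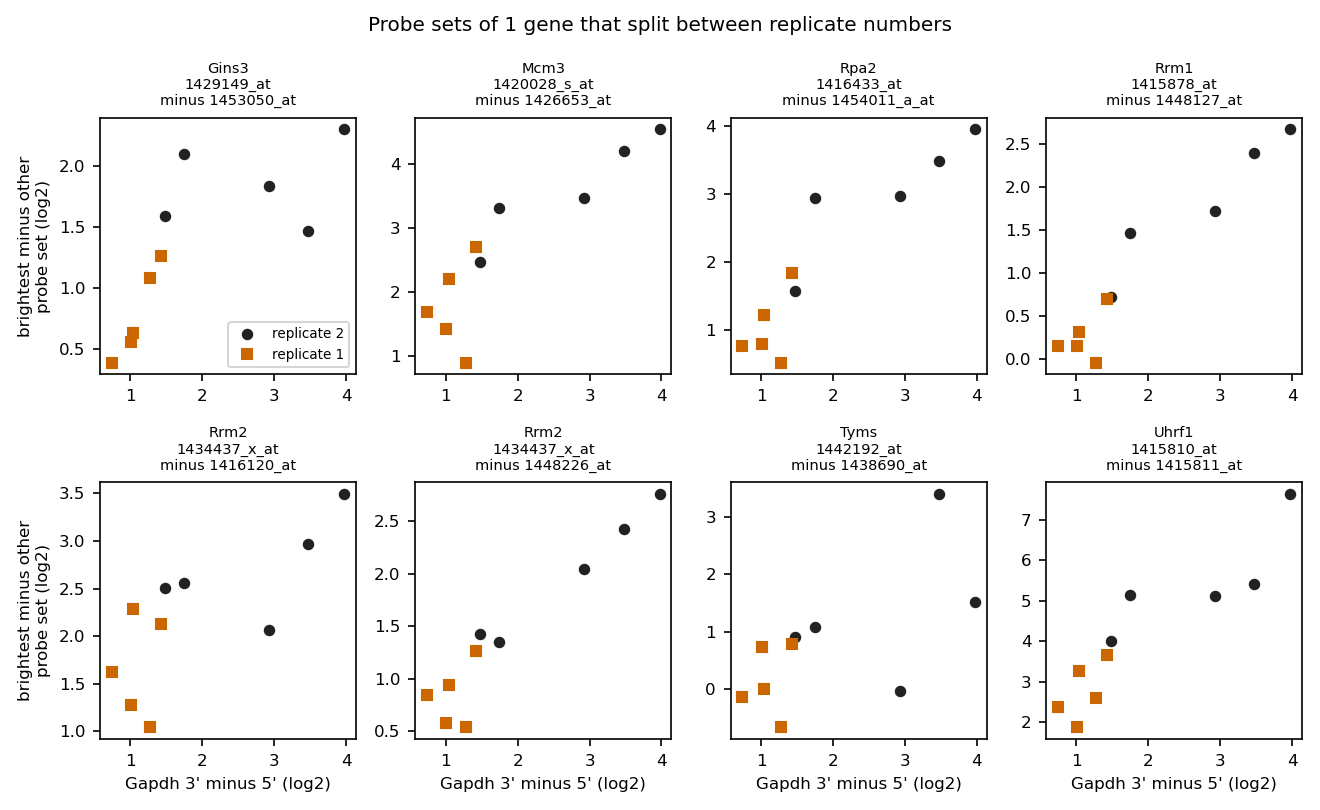
Gap between the brightest and another probe set of the same gene (log2, vertical) against the Gapdh 3′ minus 5′ difference of the array (log2, horizontal), for the 8 probe sets of 7 genes whose replicate difference lay more than 1 below that of the brightest; circles are replicate 2 and squares replicate 1. For Uhrf1, Rrm1, Gins3 and 1 probe set of Rrm2 the replicate 2 arrays lie wholly above the replicate 1 arrays, while the dimmer probe set of Uhrf1 was below the array's median level on 2 replicate 2 arrays.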

How the data were processed

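Biotin-labelled RNA of 10 LSK samples was measured on Affymetrix arrays. The authors deposited 1 log2 signal per probe set and array. GCOS and RMA are the tools in the submitters' processing notes, which give them no role. The mean linear signal, trimmed by 2% on each side, was 100.0 on every array, as after GCOS global scaling, so no array was normalized again. Depth is not defined for arrays, and 2 arrays a group limit the precision.

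Of 45101 probe sets, 64 controls were left out. 34945 had 1 symbol, 932 several and 9160 none. limma 3.58.1 in R 4.3.3 fitted 5 group means over 10 arrays (residual df 5, prior 2.21; two-sided; Benjamini-Hochberg within each of 7 comparisons), and replicate number within groups (df 4, prior 1.82). Fits were tested on simulated arrays drawn independently, with planted effects larger than the members' differences. For comparisons of groups no shift shared by a replicate number was simulated, so that test does not cover it.

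Replicate differences correlated between groups in 10 of 10 pairs (0.21 to 0.527). This shows a difference shared by the groups and not what a replicate number stands for. The members and lists were chosen with earlier results of these data known. Members given in full are the 4 of smallest p per comparison. Other lists are represented by the 2 of smallest p, shown for the 4 h and replicate comparisons. Promoters are from RefSeq.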

Additional observations from a re-analysis of the deposited data

How the results depend on the processing

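Leaving out 1 array leaves the replicate numbers unbalanced. For HOXB4-ER after 4 h without TMX against TMX it ranged from -0.39 (without 4 h replicate 2) to 0.25 (without 4 h replicate 1), and for 4 h against 1 h without TMX from -0.36 to 0.29 on leaving out the same arrays. Between replicates it ranged from 0.31 to 0.50, the highest without either HOXB4const array with TMX. Within replicate 2 and within replicate 1, an alternative chosen after seeing the data, it was 0.07 and -0.25 for 4 h without TMX against TMX. The count of members past the threshold was 0 for each array left out. With the replicate number as a block, which treats arrays of the same number as paired, 0 probe sets passed in the 6 comparisons of groups and the block changed no other call. Centring arrays on their medians gave members' medians of -0.42 for HOXB4-ER after 1 h (all genes -0.32), 0.39 for 4 h against 1 h (0.36), -0.32 for HOXB4const (-0.28), 0.37 between the constructs (0.32) and 0.71 between replicates (0.29). Averaging the probe sets of each gene gave 0.23 between replicates. Raising values below 5 to 5 gave 4, 3, 12, 48, 37 and 13 called probe sets in the order in which the comparisons are reported, and 101 between replicates. The members' brightest probe sets were not among them, and their dimmer ones were not counted there. The replicate comparison called 343 probe sets with no group term, 850 among probe sets at or above the median level and 2728 with the intensity trend, which passed 7 members. The cause of these changes was not tested. Signal near background limits the dim probe sets.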

Other observations

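Of the 12 G1 regulators, 6 were higher and 6 lower after 4 h without TMX than with it in HOXB4-ER cells (median -0.02), and none passed the threshold in limma, while 2 had an unadjusted p under 0.05. Cdkn1a and Cdkn1c are named because they had the smallest p of that list. Cdkn1a, the CDK inhibitor p21 that p53 induces, averaged 9.36 after 4 h without TMX and 7.32 with TMX in HOXB4-ER cells, a difference of 2.04 ± 0.72 (SE, n = 2 arrays a group, limma adjusted p = 1.00), and it was 1.96 ± 0.72 above the level after 1 h without TMX. Cdkn1c, the inhibitor p57, was 2.48 ± 0.89 higher after 4 h without TMX, but its mean log2 signal of 3.30 lies below the median of all probe sets. Of the 59 further replication genes, 31 were higher after 4 h without TMX than with it, with a median of 0.01. Orc5 and Cdc7, an origin subunit and the kinase that fires origins, had the smallest p of that list. They were 0.85 ± 0.41 and 0.98 ± 0.52 higher, and neither passed the threshold.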
